A study of Mus musculus with 24 samples.

Results

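The genes described here were 10 mouse Cyp2c genes, Cyp2c29, Cyp2c37, Cyp2c38, Cyp2c39, Cyp2c40, Cyp2c50, Cyp2c54, Cyp2c55, Cyp2c69 and Cyp2c70, picked by name out of 25746 genes listed for the liver libraries. RNA was sequenced from the livers of 24 C57/BL6N mice aged 12 weeks, 6 each of wildtype males (mWT), knockout males (mKO), wildtype females (fWT) and knockout females (fKO). The KO mice lacked the Mup gene cluster, which encodes the major urinary proteins, and the WT mice carried it. All KO mice descended from 1 male founder made with CRISPR/Cas9, so a change linked to that founder and the deletion itself cannot be told apart. Each library came from 1 mouse.

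Cyp2c genes encode microsomal cytochrome P450 monooxygenases, heme enzymes that take electrons from the reductase Por and hydroxylate or epoxidize drugs, steroids, retinoids and polyunsaturated fatty acids. Many of them turn arachidonic acid into epoxyeicosatrienoic acids, which soluble epoxide hydrolase then converts to diols. In rodent liver the family is known for sex-biased members, whose bias follows the pulsatile male and the more continuous female pattern of growth hormone secretion.

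The 10 genes lie on chromosome 19 within 1 cluster (GRCm38, GENCODE M21 gene bounds). From its first to its last gene these are Cyp2c55 (plus strand, 39007019 to 39042693), Cyp2c29 (plus, 39269405 to 39330713), Cyp2c38 (minus, 39389556 to 39463075), Cyp2c39 (plus, 39510862 to 39568529), Cyp2c40 (minus, 39767071 to 39812814), Cyp2c69 (minus, 39842814 to 39886799), Cyp2c37 (plus, 39992424 to 40012243), Cyp2c54 (minus, 40037940 to 40073827), Cyp2c50 (plus, 40089688 to 40113950) and Cyp2c70 (minus, 40153353 to 40187333). Cyp2c65 and Cyp2c66 lie between Cyp2c55 and Cyp2c29, and Cyp2c67 and Cyp2c68 between Cyp2c39 and Cyp2c40. Cyp2c23 lies outside the cluster on the same chromosome. These other 5 genes are given below only where they help to read the 10.

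Close relatives stood side by side. Cyp2c40 and Cyp2c69 were identical over 97.9% of their aligned coding bases, and each matched Cyp2c67 and Cyp2c68 about as well (98.1% for Cyp2c40 with Cyp2c68, 97.7% for Cyp2c69 with Cyp2c67). Cyp2c37 and Cyp2c50 were 96.1% identical, Cyp2c50 and Cyp2c54 95.2%, and Cyp2c38 and Cyp2c39 94.2%. Cyp2c29 was closest to Cyp2c39 at 89.5%, whereas Cyp2c55 reached 77.5% with Cyp2c29 and Cyp2c70 reached 70.3% with Cyp2c66. The identity plot shows these relatives as blocks along the cluster.

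**Figure D1:**
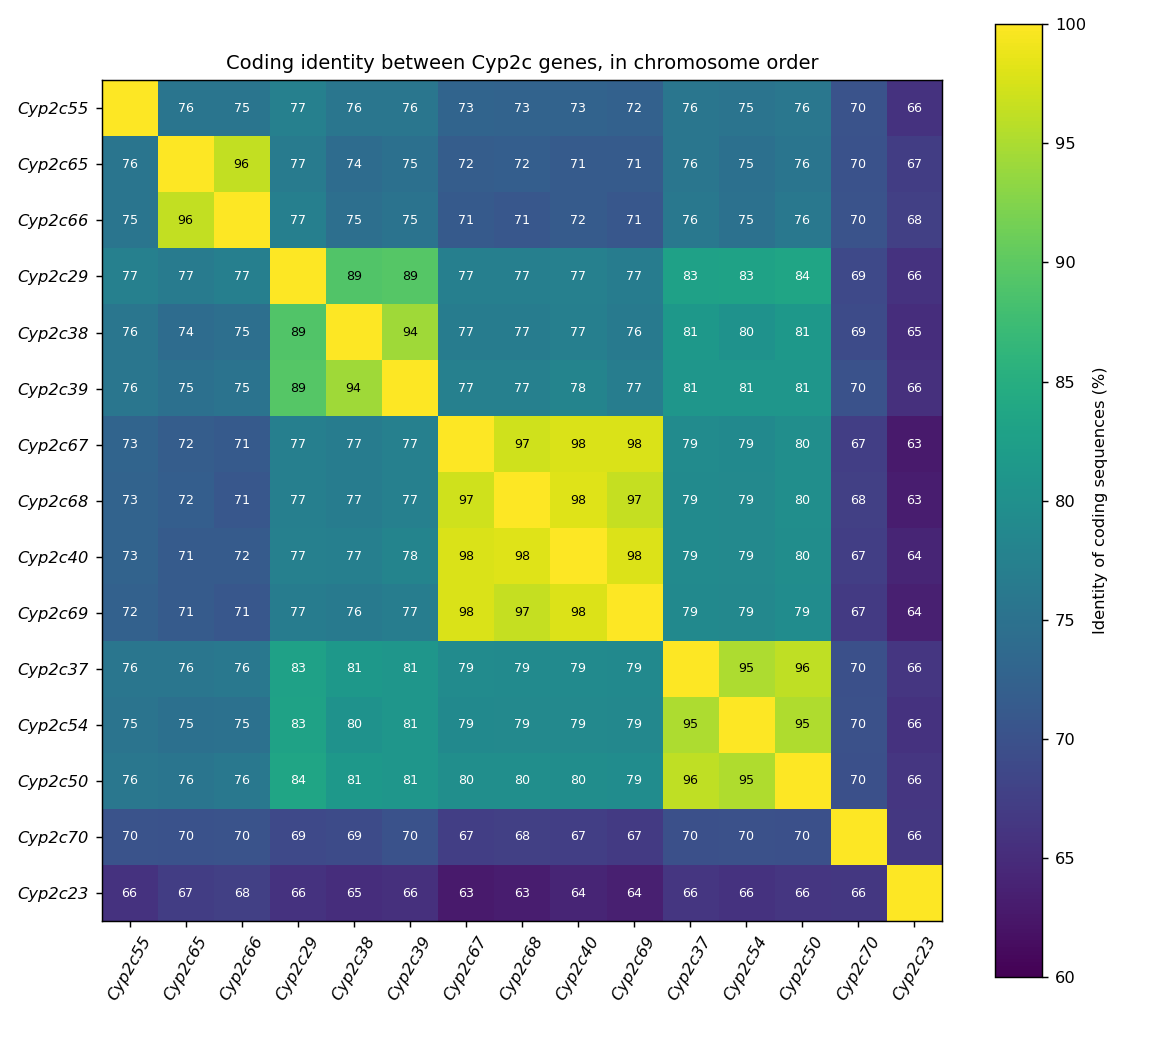
Percent identity of aligned coding sequences between 15 Cyp2c genes, both axes in chromosome order, colour and printed number giving the same value. The 4 genes Cyp2c67, Cyp2c68, Cyp2c40 and Cyp2c69 form the tightest block, and Cyp2c70 and Cyp2c23 have no close relative.

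Identity matters for counting, because the reads were single and 100 bases long. Of all 100-base windows in the transcripts of Cyp2c69, 35.4% also occurred in the transcripts of Cyp2c40, Cyp2c67 or Cyp2c68, and for Cyp2c40 the share was 34.4%. It was 7.59% for Cyp2c54, 5.35% for Cyp2c50, 4.70% for Cyp2c37 and 1.36% for Cyp2c29, and 0 for Cyp2c38, Cyp2c39, Cyp2c55 and Cyp2c70. A read from a shared window cannot be assigned to 1 gene, so the levels of Cyp2c40 and Cyp2c69 are uncertain, as are those of Cyp2c67 and Cyp2c68. The window share does not limit this uncertainty where a relative is far more abundant, as Cyp2c67 was in males, and the part of misassigned reads in the male levels of Cyp2c40 and Cyp2c69 was not tested.

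The bases just before the transcription start were compared in the closest relatives, because their levels in females and males differed widely despite this likeness. Shown first are 90 bases of Cyp2c40 ending at its RefSeq start (GRCm38.p6, chr19:39812815-39812904, minus strand) with the aligned stretch of Cyp2c69 (chr19:39886800-39886889, minus), Cyp2c68 (chr19:39741134-39741222, minus) and Cyp2c67 (chr19:39649123-39649211, minus), each written 5′ to 3′ with capitals marking bases that differ from Cyp2c40.
Cyp2c40: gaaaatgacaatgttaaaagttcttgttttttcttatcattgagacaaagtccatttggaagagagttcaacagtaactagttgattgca
Cyp2c69: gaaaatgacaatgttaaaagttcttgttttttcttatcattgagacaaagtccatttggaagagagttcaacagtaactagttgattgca
Cyp2c68: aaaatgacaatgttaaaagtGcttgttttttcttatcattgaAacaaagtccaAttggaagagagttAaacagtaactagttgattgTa
Cyp2c67: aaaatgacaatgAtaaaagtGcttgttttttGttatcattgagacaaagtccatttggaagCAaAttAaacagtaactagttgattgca

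Cyp2c69 had 0 differences from Cyp2c40 over the 90 bases, Cyp2c68 had 5 over 89 bases and Cyp2c67 had 7 over 89 bases. The RefSeq starts of these genes are not at the same aligned base, since the stretch ends 31 bases before the start of Cyp2c69, 33 before that of Cyp2c68 and 81 before that of Cyp2c67. Over the full promoter windows of 250 bases before to 50 after the start, Cyp2c40 was 98.9% identical to Cyp2c69, 94.4% to Cyp2c68 and 93.2% to Cyp2c67. The second set shows Cyp2c37 (chr19:39992334-39992423, plus strand) and Cyp2c50 (chr19:40089592-40089678, plus), with capitals in Cyp2c50 marking bases that differ from or are added to Cyp2c37.
Cyp2c37: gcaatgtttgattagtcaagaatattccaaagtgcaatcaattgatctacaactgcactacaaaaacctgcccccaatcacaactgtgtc
Cyp2c50: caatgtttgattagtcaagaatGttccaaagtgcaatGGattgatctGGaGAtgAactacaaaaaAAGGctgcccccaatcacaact

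Cyp2c50 had 9 mismatches and 3 added bases over 84 bases of Cyp2c37, and their full windows were 89.5% identical. Of the 10 genes, 9 had a RefSeq promoter window and Cyp2c54 had none. The core letters ATCAAT of the factor HNF6 stood on either strand in 4 of these 9 windows (Cyp2c37, Cyp2c40, Cyp2c50 and Cyp2c69) and in 7.54% of 32851 promoters of the same length, and they also stood in the windows of Cyp2c67 and Cyp2c68. The letters CAAAG, a core of HNF4 sites, stood in 8 of 9 windows against 53.9% of all promoters. AGGTCA, letters bound by nuclear receptors, stood in 2 of 9 against 16.3%. TTCNNNGAA, the letters that STAT5 recognizes, stood in 0 of 9 against 8.30%. These are matches of letters in 1 short window per gene and carry no information on binding. Windows of close relatives, such as Cyp2c40 with Cyp2c69 and Cyp2c37 with Cyp2c50, hold largely the same letters. The 9 windows are therefore not independent, and enrichment was not tested.

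Libraries held 15361901 to 26261394 counted reads. Levels are given as CPM, counts scaled to the size of each library by trimmed mean of M-values, and tests used edgeR's quasi-likelihood test over 12330 genes that passed a filter on low counts, with Benjamini-Hochberg adjustment and an adjusted p under 0.05 as the threshold. All 10 genes passed the filter. They reached its level of 0.66 CPM in all 24 libraries, except Cyp2c69, which reached it in 23. Reads of the 22 Mup genes numbered 272548 to 741314 per library in mWT and 70768 to 110248 in fWT, and at most 10 in mKO and 11 in fKO, as the labels require. Ddx3y, a Y-linked gene, was at 78.9 to 115 CPM in all 12 males and at 0 in all 12 females. Hepatocyte markers such as Alb were abundant in every group, their summed level being 100500 to 132800 CPM in mWT and 106800 to 156500 CPM in fWT. Fewer cells of a type and less RNA per cell cannot be told apart in whole tissue.

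Together the 10 genes took 3511 ± 337 CPM (SD, n = 6) in mWT, 4185 ± 208 in mKO, 6791 ± 937 in fWT and 7230 ± 906 in fKO. Every fWT mouse (lowest 5915 CPM) lay above every mWT mouse (highest 4135), and every fKO mouse (lowest 5886) above every mKO mouse (highest 4395). The summed level was 1.93 times as high in fWT as in mWT and 1.73 times as high in fKO as in mKO. The KO and WT ranges overlapped in both sexes.

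Levels can be ranked between genes only per kilobase of exon. The length used was that of all annotated exons of a gene, and which of its transcripts were expressed was not tested. In mWT the order was led by Cyp2c29 with 423 ± 90.1 CPM per kb (SD, n = 6), Cyp2c70 with 343 ± 97.3 and Cyp2c50 with 303 ± 40.6, whose ranges overlapped from each to the next. Cyp2c54 (173 ± 21.3) and Cyp2c37 (157 ± 45.4) followed, also overlapping each other, and a gap separated them from Cyp2c38 at 11.3 ± 3.79. The lowest 4 in mWT were Cyp2c40, Cyp2c55, Cyp2c69 and Cyp2c39, with means from 4.89 down to 1.04 CPM per kb and overlapping ranges between neighbours.

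In fWT the order per kilobase was led by Cyp2c69, with 756 ± 173 CPM per kb (SD, n = 6), then Cyp2c37 with 595 ± 137 and Cyp2c29 with 445 ± 70.2. Cyp2c70, Cyp2c50, Cyp2c54 and Cyp2c40 followed with means from 404 down to 265 CPM per kb. All 7 of these overlapped in range from each to the next, and in CPM Cyp2c29 had a higher mean (1361) than Cyp2c69 (1291). Cyp2c38 (57.8 ± 6.61), Cyp2c39 (8.94 ± 1.17) and Cyp2c55 (1.82 ± 0.514) came last, each apart from its neighbour. In the KO mice the leading gene was the same for each sex, with 584 ± 52.6 CPM per kb for Cyp2c29 in mKO and 675 ± 354 for Cyp2c69 in fKO. In mKO Cyp2c29 stood apart from the next gene, Cyp2c50, whereas in mWT it had overlapped with the next, Cyp2c70.

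**Figure D2:**
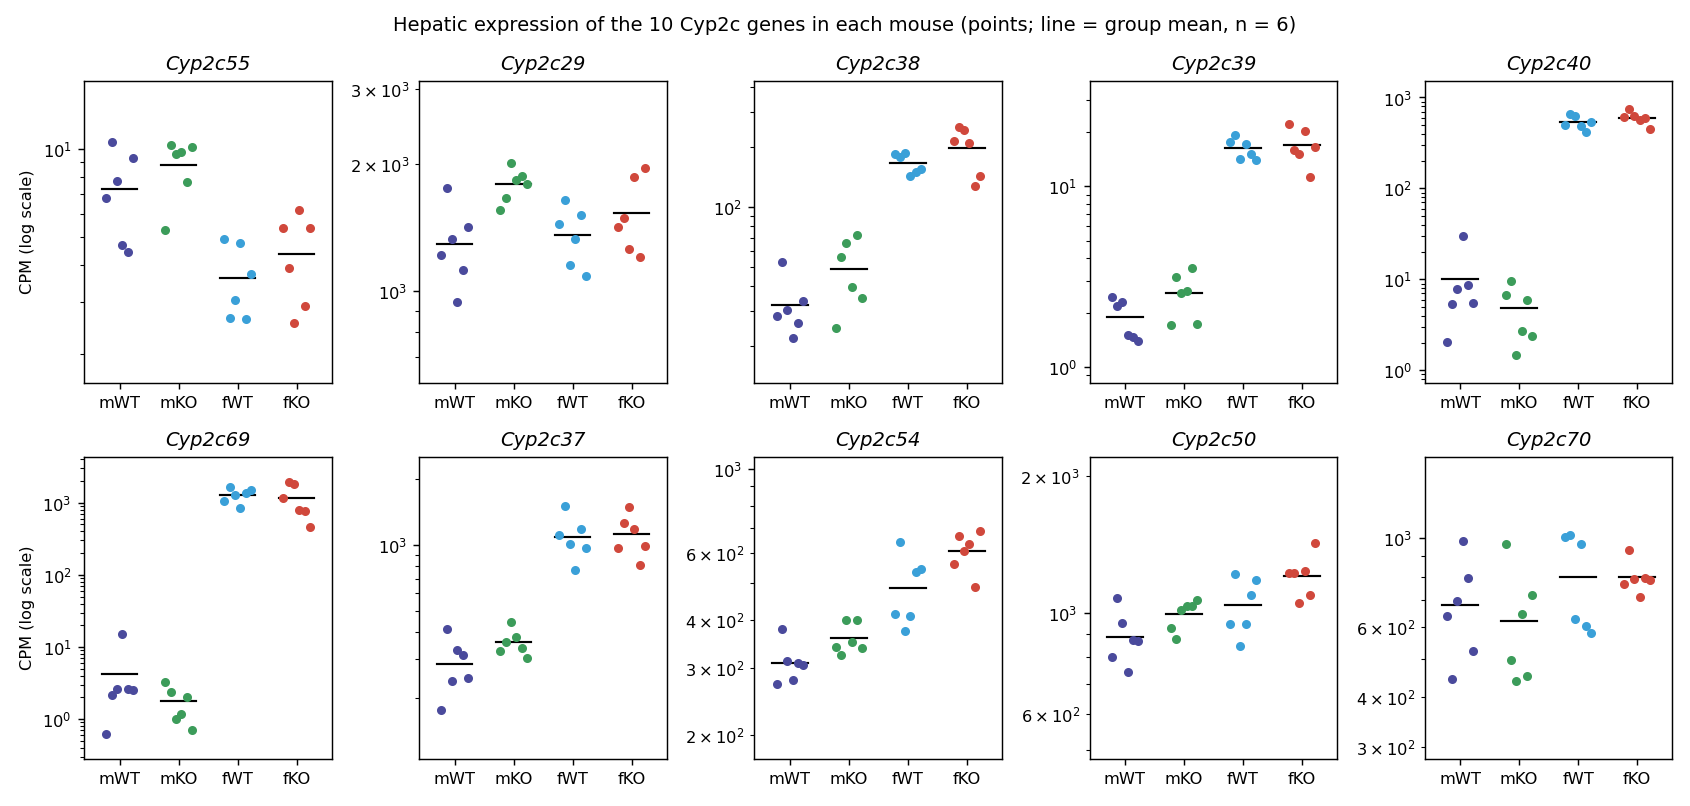
CPM on a log scale for each of the 10 Cyp2c genes in each mouse, by group, with a line at the group mean (n = 6 per group); panels follow the order of the cluster and have their own axes. Cyp2c38, Cyp2c39, Cyp2c40, Cyp2c69 and Cyp2c37 separate females from males without overlap in both genotypes, and 1 mWT mouse lies above the other males for Cyp2c40 (30.3 CPM) and Cyp2c69 (15.2 CPM).

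The comparison of females with males asked which members of the family differ by sex, in mice with and without the Mup cluster. In WT mice 7 of 10 genes differed, against 17.3% of all genes tested. Of these, 6 were higher in females (8.81% of all genes) and 1 was lower (8.51%). In 5 of 10 genes the groups of mice did not overlap, against 7.7% of all genes. The median log2 fold change of the 10 genes was 1.29, while that of all genes tested was 0.002.

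Cyp2c69, a gene known for its female-specific expression in mouse liver, lay at 0.625, 2.52 and 15.2 CPM (lowest, median, highest) in mWT and at 848, 1320 and 1666 CPM in fWT. No male came near any female. Females exceeded males by a log2 fold change of 8.20 (SE 0.633, edgeR adjusted p = 5.57e-09), or 293-fold. Without mWT mouse 4, whose value was the highest of the males, it was 9.27.

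Cyp2c40, which acts on arachidonic acid, lay at 2.06, 6.70 and 30.3 CPM in mWT and at 421, 522 and 662 CPM in fWT, again with no overlap. Its log2 fold change was 5.74 (SE 0.515, edgeR adjusted p = 6.02e-08), or 53.5-fold, and 6.51 without mWT mouse 4. In males these levels rested on few reads, 33 to 601 per mWT library for Cyp2c40 and 10 to 302 for Cyp2c69. Of its 2401 windows, Cyp2c40 shared 531 with Cyp2c69, 232 with Cyp2c67 and 272 with Cyp2c68. Of its 1796 windows, Cyp2c69 shared 531 with Cyp2c40, 233 with Cyp2c67 and 77 with Cyp2c68. Among these relatives Cyp2c67 and Cyp2c68 were abundant in males.

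The relatives Cyp2c67 and Cyp2c68, whose transcripts share windows with those of Cyp2c40 and Cyp2c69, differed by sex in other ways. Cyp2c68 was 177 ± 42.1 CPM in mWT and 640 ± 81.5 CPM in fWT (log2 fold change 1.86, SE 0.129, edgeR adjusted p = 2.87e-11). Cyp2c67 was lower in females, with 332 ± 98.0 CPM in mWT and 231 ± 38.6 CPM in fWT (log2 fold change -0.52, SE 0.158, edgeR adjusted p = 0.0244), and its groups overlapped. As counted, the 4 genes with nearly the same coding sequence and promoter letters, printed above, ranged from 293-fold higher to 1.43-fold lower in females. Of the 100-base windows of Cyp2c67 23.7% also occurred in these relatives, and of those of Cyp2c68 19.8%. In fWT Cyp2c69 (1291 CPM) was far more abundant than Cyp2c67. The part of misassigned reads in the levels of Cyp2c67 and Cyp2c68 was not tested.

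Summed over Cyp2c40, Cyp2c67, Cyp2c68 and Cyp2c69, the level was 522 ± 152 CPM in mWT and 2703 ± 453 CPM in fWT. The mice of the 2 groups did not overlap, and the ratio of the means was 5.17. Per kilobase of exon, Cyp2c40 stood at 0.960% to 5.58% of the level of Cyp2c67 in mWT and at 0.344% to 2.03% in mKO. In the females it stood at 155% to 239% in fWT and 145% to 195% in fKO.

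Cyp2c39, an enzyme known to hydroxylate retinoic acid, was the third most female-biased gene. It lay at 1.40, 1.85 and 2.44 CPM in mWT and at 14.1, 16.1 and 19.4 CPM in fWT, without overlap, which gave a log2 fold change of 3.11 (SE 0.187, edgeR adjusted p = 1.68e-12).

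Its neighbour and closest relative Cyp2c38, which forms epoxyeicosatrienoic acids, lay at 22.1, 29.5 and 53.0 CPM in mWT and at 143, 166 and 186 CPM in fWT, without overlap, which gave a log2 fold change of 2.36 (SE 0.249, edgeR adjusted p = 4.69e-07). Neither gene shared a 100-base window with another.

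Cyp2c37, also an arachidonic acid enzyme, lay at 176, 279 and 412 CPM in mWT and at 762, 1054 and 1507 CPM in fWT, without overlap, which gave a log2 fold change of 1.93 (SE 0.182, edgeR adjusted p = 3.51e-08), or 3.80-fold. Cyp2c50, which shares 96.1% of its coding bases with Cyp2c37 and epoxidizes arachidonic acid, lay at 741, 871 and 1078 CPM in mWT and at 848, 1023 and 1218 CPM in fWT. Its groups overlapped and the difference did not pass the threshold (log2 fold change 0.23, 95% confidence interval 0.03 to 0.43, edgeR adjusted p = 0.1001). Per kilobase of exon, Cyp2c37 was 0.352 to 0.711 times as high as Cyp2c50 within each mWT mouse and 1.29 to 1.98 times as high within each fWT mouse. By this measure Cyp2c50 was the higher of the 2 in every mWT mouse and Cyp2c37 in every fWT mouse. The fWT order depended on the exon lengths used, 1824 bases for Cyp2c37 and 2918 for Cyp2c50. In CPM Cyp2c50 was the higher in fWT mouse 4 (948 against 762) and mouse 6 (1180 against 965).

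Cyp2c54, the third gene of this trio, lay at 271, 307 and 379 CPM in mWT and at 375, 475 and 641 CPM in fWT. One female fell within the range of the males. The log2 fold change was 0.66 (SE 0.114, edgeR adjusted p = 1.61e-04). The trio Cyp2c37, Cyp2c50 and Cyp2c54 summed to 1480 ± 213 CPM in mWT and 2613 ± 453 CPM in fWT, without overlap.

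Cyp2c55, known as an intestinal and drug-inducible member, was the single gene of the 10 that was lower in females. It lay at 4.45, 7.30 and 10.6 CPM in mWT and at 2.64, 3.40 and 4.91 CPM in fWT, with some overlap. Its log2 fold change was -0.99 (SE 0.244, edgeR adjusted p = 0.00594), or 1.98-fold lower.

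The most abundant gene in males, Cyp2c29, an epoxygenase that is inducible through the receptor CAR, lay at 944, 1274 and 1748 CPM in mWT and at 1084, 1384 and 1645 CPM in fWT. The groups overlapped throughout (log2 fold change 0.07, 95% confidence interval -0.20 to 0.35, edgeR adjusted p = 0.766). Cyp2c70, the enzyme that makes muricholic acids in mouse bile, lay at 446, 667 and 982 CPM in mWT and at 579, 796 and 1020 CPM in fWT, also overlapping (log2 fold change 0.24, 95% confidence interval -0.18 to 0.65, edgeR adjusted p = 0.468). The fWT mice fell into 3 with 579 to 629 CPM of Cyp2c70 and 3 with 963 to 1020 CPM.

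**Figure D3:**
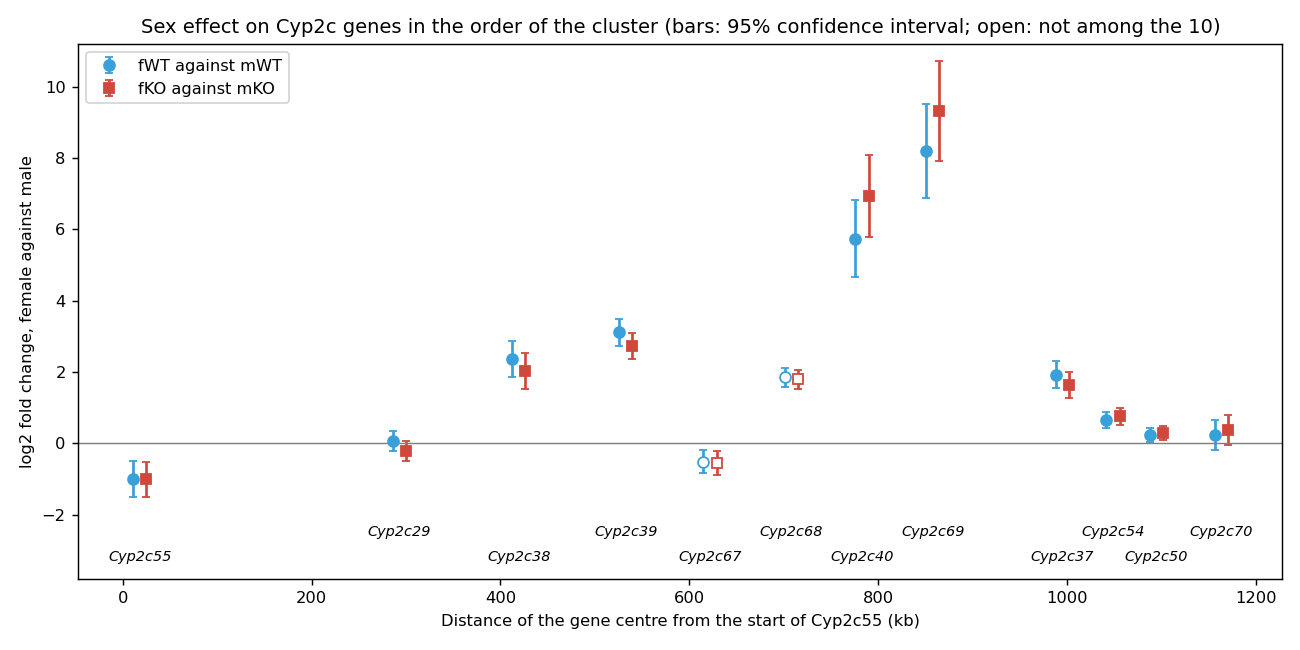
log2 fold change of females against males (y axis) with 95% confidence intervals from edgeR, for WT mice (blue circles) and KO mice (red squares), against the distance of each gene's centre from the start of Cyp2c55 in kb. Filled symbols are the 10 genes and open symbols are Cyp2c67 and Cyp2c68. Cyp2c40 and Cyp2c69 rise to between 5.74 and 9.32 beside Cyp2c67, which lies below 0.

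In KO mice 8 of 10 genes differed by sex, against 14.4% of all genes tested, 7 of them higher in females (7.13%) and 1 lower (7.26%). In 6 of 10 genes the groups did not overlap, against 7.26% of all genes. Cyp2c69 lay at 0.713, 1.58 and 3.29 CPM in mKO and at 457, 972 and 1945 CPM in fKO (log2 fold change 9.32, SE 0.675, edgeR adjusted p = 2.22e-09). Cyp2c40 lay at 1.48, 4.33 and 9.61 CPM in mKO and at 451, 599 and 740 CPM in fKO (log2 fold change 6.94, SE 0.548, edgeR adjusted p = 9.47e-09). Neither gene came near overlapping.

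Cyp2c39, Cyp2c38 and Cyp2c37 were again higher in every female than in any male, with log2 fold changes of 2.73, 2.02 and 1.63. Cyp2c54 did not overlap in KO mice either, being 324 to 401 CPM in mKO and 488 to 685 CPM in fKO (log2 fold change 0.76, SE 0.114, edgeR adjusted p = 2.48e-05). Cyp2c55 was lower in females by about the same factor as in WT mice (log2 fold change -1.01, SE 0.239, edgeR adjusted p = 0.00461). Cyp2c50 was just past the threshold (log2 fold change 0.28, SE 0.0971, edgeR adjusted p = 0.0496) and lost the call in 21 of the alternatives run, such as without the filter on low counts (adjusted p = 0.0643). Cyp2c29 (log2 fold change -0.22, adjusted p = 0.286 by edgeR) and Cyp2c70 (0.36, adjusted p = 0.245 by edgeR) did not pass.

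Whether the sex difference itself changed with the deletion was tested as the interaction of genotype and sex. None of the 10 genes passed by edgeR (0.00811% of all genes) or by DESeq2 (10 genes called in all). At an unadjusted p under 0.05 by edgeR it was 0 of 10, against 5.96% of all genes. The interval was widest for Cyp2c40 and Cyp2c69. For Cyp2c40 the KO effect in males minus that in females was -1.19 on the log2 scale (95% confidence interval -2.51 to 0.12, edgeR adjusted p = 0.864) and for Cyp2c69 it was -1.13 (-2.70 to 0.44, edgeR adjusted p = 0.886). Without mWT mouse 4 these values were -0.42 and -0.05. For Cyp2c50 the interval ran from -0.33 to 0.23 and for Cyp2c54 from -0.43 to 0.23.

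Markers of other liver cells moved with sex in WT mice. Of 6 Kupffer cell markers, 4 were higher in fWT than in mWT (8.81% of all genes), with a summed level of 52.2 to 112 CPM in mWT and 99.3 to 191 CPM in fWT, and none of the 6 was at 0. In KO mice 0 of 6 passed (7.13% of all genes were higher in females and 7.26% lower), with 51.5 to 146 CPM in mKO and 84.8 to 148 CPM in fKO. All 6 were still estimated higher in fKO than in mKO, with log2 fold changes of 0.35 to 0.59. The interaction of genotype and sex passed for 0 of 6, against 0.00811% of all genes. Endothelial markers were higher in fWT for 2 of 5 and stellate markers for 1 of 6. Of those tested, 1 of 3 cholangiocyte and 1 of 2 lymphocyte markers were higher. In KO mice these counts were 1, 2, 0 and 0. Pericentral hepatocyte markers mark the zone where many P450 genes are expressed. They were higher in females for 4 of 9 in WT and 2 of 9 in KO, against the same 8.81% and 7.13% of all genes. Their sums were 8450 to 12490 CPM in mWT and 10540 to 14810 CPM in fWT. Cyp2e1 made up most of them, with means of 7780 of 10500 CPM in mWT and 9220 of 12740 CPM in fWT. The part of any of these cell types in the sex differences was not tested.

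The comparison of KO with WT mice asked whether removal of the Mup cluster altered these P450 genes. In males 0 of 10 genes passed an adjusted p under 0.05 by edgeR, against 0.211% of all genes (26 genes, or 2 with the Mup genes removed). At an unadjusted p under 0.01, the cutoff used in the study, 1 of 10 passed, against 3.52% of all genes, and at an unadjusted p under 0.05 it was 5 of 10, against 10.6%. DESeq2 called 142 genes at an adjusted p under 0.05, 1 of them among the 10.

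That gene was Cyp2c29, which lay at 944, 1274 and 1748 CPM in mWT and at 1556, 1813 and 2013 CPM in mKO. Of the 6 mKO mice, 4 lay above every mWT mouse, though the groups overlapped. The log2 fold change was 0.46 (SE 0.134, unadjusted p = 0.00189 and adjusted p = 0.161 by edgeR), or 1.38-fold, and DESeq2 gave an adjusted p of 0.0448. The value was between 0.39 and 0.57 when any 1 mouse was left out.

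The other 4 at an unadjusted p under 0.05 had adjusted p-values of 0.363 to 0.462 by edgeR and so did not pass. Cyp2c38 lay at 22.1, 29.5 and 53.0 CPM in mWT and at 24.7, 48.0 and 72.5 CPM in mKO (log2 fold change 0.60, SE 0.241). Cyp2c39 lay at 1.40, 1.85 and 2.44 CPM in mWT and at 1.71, 2.62 and 3.51 CPM in mKO (log2 fold change 0.44, SE 0.207). Both pairs of groups overlapped.

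Cyp2c40 and Cyp2c69 had negative values in males, -1.05 (SE 0.476) and -1.29 (SE 0.604) on the log2 scale. These rested on mWT mouse 4. Without it they were -0.28 (unadjusted p = 0.465 by edgeR) and -0.21 (unadjusted p = 0.671 by edgeR). In the other 5 mWT mice Cyp2c40 was 2.06 to 8.60 CPM and Cyp2c69 0.625 to 2.58 CPM, close to the mKO ranges of 1.48 to 9.61 and 0.713 to 3.29 CPM.

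**Figure D4:**
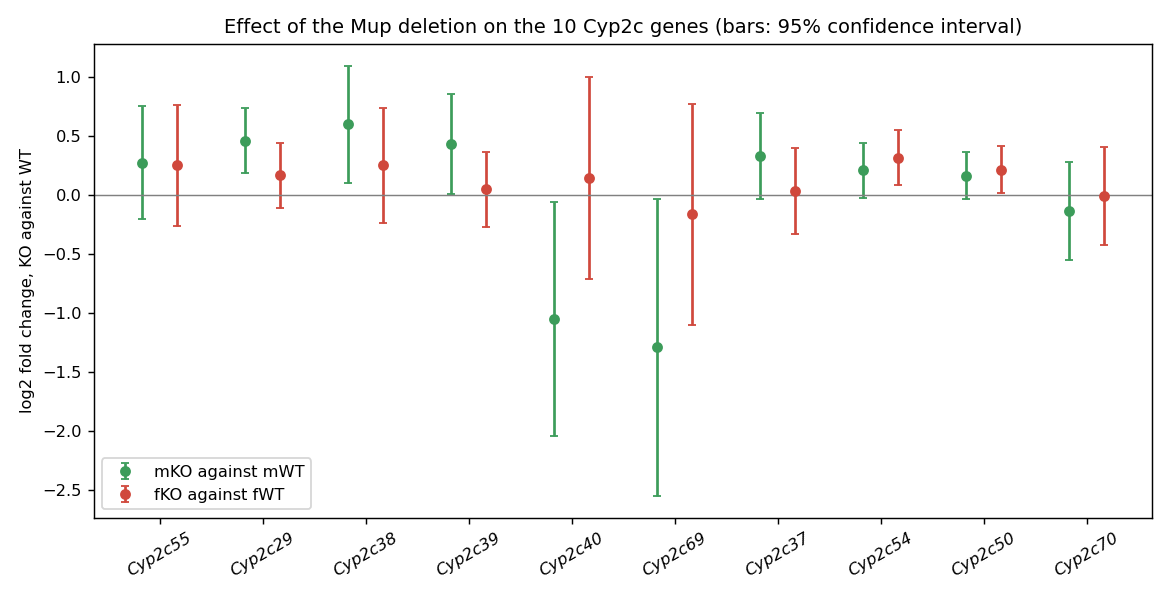
log2 fold change of KO against WT (y axis) with 95% confidence intervals from edgeR for the 10 genes in cluster order, in males (green) and females (red). In males the intervals of Cyp2c29, Cyp2c38, Cyp2c39, Cyp2c40 and Cyp2c69 leave out 0 before adjustment, and in females those of Cyp2c54 and Cyp2c50 do; none passed after adjustment over all genes by edgeR.

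In females 0 of 10 genes passed by edgeR, against 0.0892% of all genes (11 genes, or 0 with the Mup genes removed). By DESeq2 0 of 10 passed, and 18 genes were called in all. By edgeR 1 of 10 had an unadjusted p under 0.01, against 0.876%. It was Cyp2c54, which lay at 375, 475 and 641 CPM in fWT and at 488, 622 and 685 CPM in fKO. The groups overlapped, with 2 fKO mice above every fWT mouse. The log2 fold change was 0.32 (SE 0.114, unadjusted p = 0.00938 and adjusted p = 0.929 by edgeR). Cyp2c50 was 1040 ± 147 CPM in fWT and 1210 ± 131 CPM in fKO (SD, n = 6 each; log2 fold change 0.22, SE 0.0970, adjusted p = 0.929 by edgeR).

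Averaged over both sexes, 0 of 10 genes passed by edgeR, against 0.17% of all genes (21 genes, or 1 with the Mup genes removed). By DESeq2 0 of 10 passed, and 48 genes were called in all. By edgeR 3 of 10 had an unadjusted p under 0.01 (2.83%), all with higher values in KO mice (1.49% of all genes). These were Cyp2c29 (log2 fold change 0.32, SE 0.0948, unadjusted p = 0.00251 and adjusted p = 0.279 by edgeR), Cyp2c54 (0.27, SE 0.0803, unadjusted p = 0.00271 and adjusted p = 0.279 by edgeR) and Cyp2c50 (0.19, SE 0.0686, unadjusted p = 0.00946 and adjusted p = 0.345 by edgeR). Their 95% confidence intervals reached at most 0.51, 0.43 and 0.33, the first of which is 1.43-fold. The median log2 fold change of the 10 genes was 0.25 in males and 0.16 in females, and that of all genes was -0.0021 and -0.0026. For Cyp2c70 the interval over both sexes was -0.36 to 0.23.

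Mice of 1 group varied most in Cyp2c69 and Cyp2c40. Their spread within groups was 0.917 and 0.819 on the log2 scale, above that of 99.35% and 98.97% of genes tested, where the median gene had 0.201. For Cyp2c40 the SD was 102.7% of the mean in mWT and 65.45% in mKO, where few reads were counted. In females it was 16.56% in fWT and 15.72% in fKO. Cyp2c50 (0.169) and Cyp2c54 (0.207) were near the median gene. In fKO Cyp2c69 ranged 4.25-fold between mice, from 457 to 1945 CPM, while Cyp2c40 in the same mice ranged 1.64-fold, and the ratio of Cyp2c40 to Cyp2c69 per kilobase ran from 0.293 to 0.827.

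In mWT the ratio of Cyp2c40 to Cyp2c69 per kilobase was 1.67 to 2.82, including mouse 4, while their levels ranged 14.7-fold and 24.4-fold. In mKO the ratio ran from 1.24 to 3.45, while the levels ranged 6.51-fold and 4.61-fold. In mouse 4 Cyp2c29 was the lowest of the mWT group at 944 CPM and Cyp2c70 the highest at 982 CPM. Cyp2c67 and Cyp2c68 were also the highest of the mWT group there, at 462 and 240 CPM. In mKO mouse 1 Cyp2c67 was higher still, at 510.5 CPM, with Cyp2c40 at 6.78 CPM and Cyp2c69 at 3.29 CPM. The part of reads from Cyp2c67 or Cyp2c68 in the values of mWT mouse 4 was not tested.

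**Figure D5:**
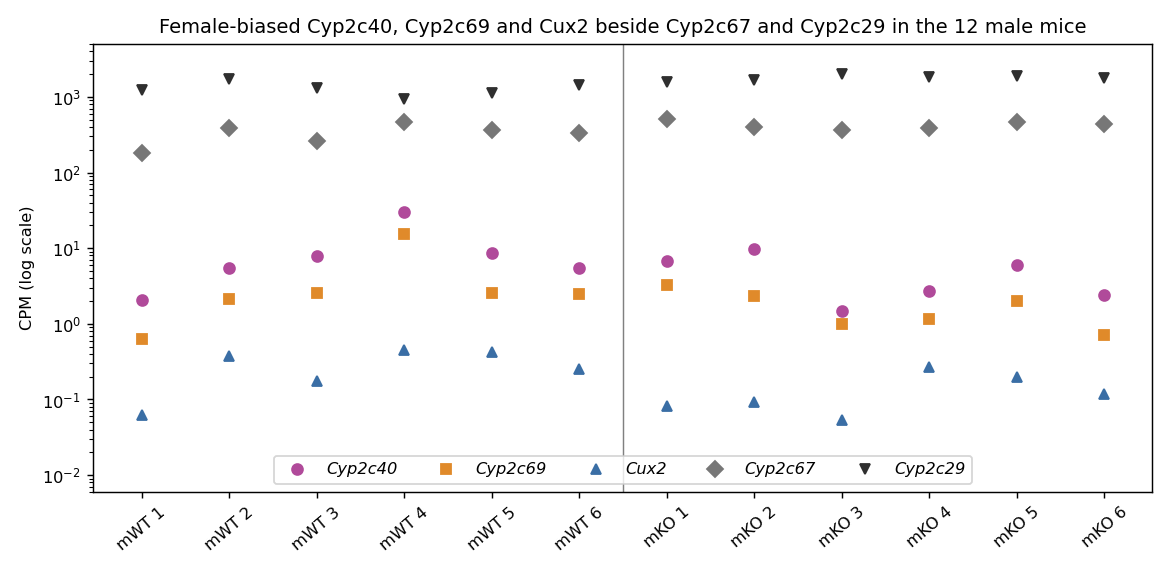
CPM on a log scale of Cyp2c40, Cyp2c69, Cux2, Cyp2c67 and Cyp2c29 in each of the 12 male mice, mWT left of the line and mKO right of it. Cyp2c40 and Cyp2c69 stand apart in mWT mouse 4 (30.3 and 15.2 CPM), where Cux2 is 0.454 CPM.

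Profiles over the 24 libraries were compared as the root mean square difference of log2 CPM after centring each gene on its own mean, a description of likeness over mice of both sexes and genotypes. Outside the family, the gene most like Cyp2c40 was Cux2, a transcription factor known for its female-biased expression in liver (0.901 over 24 libraries). That most like Cyp2c69 was Slc22a26 (0.866), and the pair Cyp2c40 and Cyp2c69 differed by 1.26 from each other. These distances take in the difference between the sexes. Within fWT Cux2 ranged 4.55-fold between mice and Cyp2c40 1.57-fold, and Cux2 had 1 to 9 reads per mWT library. Cyp2c37 was closest to Rdh16f2 (0.319), Cyp2c38 to Vldlr (0.428), Cyp2c39 to Nt5e (0.409) and Cyp2c55 to Aldh1a7 (0.310). Cyp2c29 was closest to Pls3 (0.160), Cyp2c50 to Ctso (0.148), Cyp2c54 to Mpc2 (0.184) and Cyp2c70 to Psmb8 (0.260).

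Within the 10, Cyp2c37 and Cyp2c38 were nearest to each other (0.438), although they are not the closest by sequence. Cyp2c50 and Cyp2c54 were also nearest to each other (0.248), and Cyp2c29 was nearest to Cyp2c50 (0.260). The farthest pair was Cyp2c55 and Cyp2c69 (5.16).

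Of 12 transcription factors known to act on Cyp2c genes or on sex bias in liver, 2 were higher in females in WT (8.81% of all genes) and the same 2 in KO (7.13%), and none was lower. Cux2 was 0.0625 to 0.454 CPM in mWT and 9.40 to 42.8 CPM in fWT (log2 fold change 6.30, SE 0.500, edgeR adjusted p = 5.29e-09). In males that is 1 to 9 reads per mWT library. Nr1i3, the gene of the receptor CAR, was 247 ± 96.0 CPM in mWT and 443 ± 106 CPM in fWT (log2 fold change 0.84, SE 0.232, edgeR adjusted p = 0.0144). Bcl6, a male-biased repressor, had a log2 fold change of -1.80 (SE 0.703, edgeR adjusted p = 0.0849) and did not pass. Onecut1, the gene of HNF6, and Stat5b did not pass either (log2 fold changes -0.10 and 0.04). For the KO effect 0 of 12 passed in either sex.

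Among 5 genes listed under electron supply to P450 enzymes, Cyb5r3, a cytochrome b5 reductase, was lower in females in both genotypes. It was 433 ± 37.6 CPM in mWT and 319 ± 40.6 CPM in fWT (log2 fold change -0.44, edgeR adjusted p = 0.00133). In WT it was the 1 of 5 that passed (17.3% of all genes). Por, the P450 reductase itself, lay at 225, 340 and 593 CPM in mWT and at 303, 374 and 617 CPM in fWT and did not pass (edgeR adjusted p = 0.544). In KO mice it lay at 144, 217 and 279 CPM in mKO and at 213, 416 and 592 CPM in fKO, and was higher in females (log2 fold change 0.85, SE 0.271, edgeR adjusted p = 0.0381). Cyb5b, an outer mitochondrial membrane form of cytochrome b5, was lower in every fKO mouse than in any mKO mouse (680 ± 47.5 CPM in mKO, 535 ± 59.2 CPM in fKO, log2 fold change -0.35, edgeR adjusted p = 0.0198), so that 3 of 5 passed in KO (14.4% of all genes). The KO effect on Por in males was -0.74 on the log2 scale (SE 0.271, unadjusted p = 0.0124 and adjusted p = 0.302 by edgeR), and 0 of 5 passed for the KO effect in either sex. The interaction of genotype and sex did not pass for Por (edgeR adjusted p = 0.881).

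Of 6 other enzymes that oxidize fatty acids or break down epoxides, 4 were lower in females in WT (8.51% of all genes) and 4 in KO (7.26%), and none was higher. Cyp2u1, a fatty acid hydroxylase, had a log2 fold change of -2.46 in WT (24.6 ± 9.27 CPM in mWT, 4.41 ± 2.65 CPM in fWT, edgeR adjusted p = 6.83e-06). Ephx2, soluble epoxide hydrolase, was 953 ± 132 CPM in mWT and 592 ± 36.6 CPM in fWT (log2 fold change -0.69, edgeR adjusted p = 9.79e-07), without overlap, in the mice in which 6 of the 10 Cyp2c genes were higher. Cyp2j6 and Ephx1 had log2 fold changes of -0.27 and -0.33 in WT. For the KO effect 0 of 6 passed in either sex.

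Of the 5 Cyp2c genes outside the 10, Cyp2c23, an epoxygenase of kidney and liver, was 411 ± 55.0 CPM in mWT and 427 ± 54.0 CPM in fWT and did not pass for sex in either genotype. Cyp2c65 had 0 to 0.106 CPM in every library, under the level that 3 reads give in the shallowest library (0.195 CPM), and Cyp2c66 had 0 reads. Neither could be tested. None of the 3 that were tested passed for the KO effect in either sex by edgeR.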

How the data were processed

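Livers of 24 mice, 1 library each, were sequenced by the authors as 100-base single-end reads of stranded mRNA libraries. According to the methods and the submitters' processing notes, reads were trimmed with fastp 0.20, aligned to GRCm38.p6 with STAR 2.7a and counted per gene with featureCounts. The deposited values are raw counts. The annotation release, the strand setting and the treatment of reads with several alignments are not given in the sources used here. Symbols and coordinates came from GENCODE M21 (25712 of 25746 identifiers matched).

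Counts were scaled by trimmed mean of M-values and tested with edgeR 4.0.16 (quasi-likelihood, robust, 1 mean per group over all 24 libraries) in genes that reached 0.66 CPM in 6 or more libraries. Adjusted p is Benjamini-Hochberg over 12330 genes. The script was tested on simulated data. Alternatives were DESeq2 1.42.0, its size factors, other filters and dispersions, Mup genes removed, the 2 compared groups alone, a replicate block, and each mouse left out. Promoters were RefSeq's (GRCm38.p6). The members and lists were chosen with earlier results of these data known. The text names all 10 members but only some genes of most lists, among them genes that did not pass. Intervals cover spread between mice; count floors cover counting error only. Libraries within a group were all more different than sampling noise.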

Additional observations from a re-analysis of the deposited data

Results flagged for a closer look

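In each of 40 combinations of gene and group, the highest or lowest mouse was compared with the other 5 by Dixon's ratio, which flags about 1 in 20 groups by chance. A single mouse stood apart in 4 of them. Cyp2c40 was 30.3 CPM in mWT mouse 4, against 2.06 to 8.60 CPM in the others. Cyp2c69 was 15.2 CPM in the same mouse, against 0.625 to 2.58 CPM, and these 2 genes share part of their sequence. Cyp2c38 was 53.0 CPM in mWT mouse 2, against 22.1 to 33.6 CPM. Cyp2c70 was 932.9 CPM in fKO mouse 2, against 713.5 to 794 CPM.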

How the results depend on the processing

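The calls of sex differences in Cyp2c37, Cyp2c38, Cyp2c39, Cyp2c40, Cyp2c54, Cyp2c55 and Cyp2c69 kept their direction and their side of the threshold under every alternative run. In WT 7 of 10 genes differed under each alternative, and 8 with Cyp2c50 added without mWT mouse 2 (adjusted p = 0.0330) or fWT mouse 3 (0.0458). In KO Cyp2c50 was lost in 21 alternatives, with adjusted p up to 0.119 without fKO mouse 6, which left 7 of 10.

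For the KO effect in males DESeq2 gave 142 genes in place of 26, 1 member in place of 0, and 2 members in place of 1 at an unadjusted p under 0.01. Removing the Mup genes left 2 genes, and fitting the 2 groups alone gave 49. With 1 mouse left out the count of genes was 19 to 59, that at an unadjusted p under 0.01 was 284 (without mWT mouse 5) to 525 in place of 434, and that of members was 1 to 2. In females DESeq2 gave 18 genes in place of 11 and removal of the Mup genes 0. Members at an unadjusted p under 0.01 numbered 0 in place of 1 with non-robust dispersions and with the 2 groups alone, and 0 to 1 with a mouse left out. Averaged over sexes DESeq2 gave 48 genes in place of 21 and removal of the Mup genes 1, and 225 (without fKO mouse 2) to 472 genes in place of 349 had an unadjusted p under 0.01 with a mouse left out. For the interaction DESeq2 gave 10 genes in place of 1. The cause of these shifts was not tested, except that the Mup genes are those deleted.

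Values near 0 changed sign. For Cyp2c70 in females the log2 fold change of -0.0042 became 0.0021 with DESeq2 or its size factors, 0.0009 with edgeR's own filter and 0.0341 with the replicate block. With a mouse left out it was -0.0818 to 0.0774, and in males -0.3036 to 0.0010. In females Cyp2c37 was -0.0635 to 0.1526 and Cyp2c39 -0.0423 to 0.1473. The interaction was -0.0892 to 0.1607 for Cyp2c55, -0.1012 to 0.0137 for Cyp2c50 and -0.2994 to 0.0053 for Cyp2c70. The sex difference of Cyp2c29 in WT was -0.0053 to 0.1755. None of these had passed a threshold.

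Replicate numbers did not pair the mice. Correlations of same-numbered mice of 2 groups ran from -0.3352 to 0.1692, and only 1 or 2 of 6 pairs exceeded 0.1 in each pairing of groups. With the number as a replicate block, 24 genes in place of 26 passed in males, 11 in females in both fits, and Cyp2c50 lost its call in KO (adjusted p = 0.0524). Low read counts limited Cyp2c40 and Cyp2c69 in males, and shared sequence limited both in all groups.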
